A study of Homo sapiens with 18 samples.

Results

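The 45 genes described here encode proteins of the Fanconi pathway, of homologous recombination and of the checkpoints that respond to DNA damage. They were picked by symbol from the TempO-Seq table of 3 triple-negative breast cancer (TNBC) cell lines, in which TempO-Seq ligates a pair of detector oligonucleotides on each target RNA and counts the ligated product by sequencing. The 45 genes were read by 52 of the 21111 probes, against 19289 gene symbols in the whole table, and 7 of them had 2 probes each (FANCA, FANCC, BRCA1, BARD1, MRE11A, RAD54B and H2AFX). The 3 established cell lines were mesenchymal-like BT549, mesenchymal-like Hs578T and basal-like SUM149PT, the last of which is known to carry a BRCA1 mutation. Each line was transfected with 50 nM siRNA against ASAP1 (siASAP1) or with control siRNA (siCtrl), and was lysed after 72 h. The study's results call siCtrl non-targeting. Its methods describe a pool of siRNAs against kinases that did not significantly change the expression of single kinases. ATM, ATR, CHEK1 and CHEK2 among the members encode kinases, and an effect of siCtrl on them was not tested here. With 3 libraries per line and siRNA there were 18 libraries, which the study calls biological triplicates. The study took all 3 lines as carrying an amplified ASAP1 locus. Since the basal-like group is SUM149PT alone, a difference from it is a difference between lines and not between subtypes.

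When DNA strands are crosslinked, the Fanconi core complex attaches ubiquitin to the pair FANCD2 and FANCI, which recruits nucleases to the lesion. Broken ends are then resected by MRE11, RAD50 and NBN with CtIP and EXO1, and BRCA1, PALB2 and BRCA2 act on the exposed strand to start strand exchange. ATM and ATR signal the damage through CHEK2 and CHEK1, and cells that lack BRCA1 or BRCA2 are sensitive to crosslinking drugs and PARP inhibitors, which is why these genes are studied in TNBC.

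The libraries held between 4.63 and 12.5 M reads (median 6.63 M), and a value is given below as the normalized count, which is the number of reads of a probe divided by the size factor of the library. The silenced gene itself, ASAP1, an Arf GTPase-activating protein, was read by 1 probe. In BT549 its normalized count was 367, 729.7 and 783 after siASAP1 and 1107, 966 and 944 after siCtrl. In Hs578T it was 782, 825 and 1261 after siASAP1 and 1641, 1414 and 2697 after siCtrl. In both of these lines the groups did not overlap, and the Log2 FC was -0.75 ± 0.39 (SE) and -0.98 ± 0.32. In SUM149PT it was 282, 468 and 184 after siASAP1 and 1087, 189 and 1314 after siCtrl (Log2 FC -1.16 ± 0.77). Over all 18 libraries the Log2 FC of ASAP1 was -0.96 ± 0.31 (limma adjusted p = 0.127). The library labelled SUM149PT siCtrl 2 therefore held less ASAP1 than 2 of the 3 siASAP1 libraries of its line, so that the silenced gene goes against its label, and the main results that rest on it are given with and without it. Other marker genes of that library went both ways, and they were not tallied. In 3 marker probes it sat with the siCtrl label. The mesenchymal marker probe VIM_18185 had 791, 1039.7 and 955 after siASAP1 and 2908, 1994 and 2965 after siCtrl, FN1_27231 had 4322, 5346 and 3493 and 973, 753 and 836, and KRT17 had 2419.7, 5514 and 3521 and 1509, 647 and 1941. In TYMS and KRT18 it did not. TYMS had 2025, 5602 and 3043 reads after siASAP1 and 13249, 4563 and 12745 after siCtrl. KRT18 had 247, 646 and 364 reads after siASAP1 and 679, 165 and 826 after siCtrl. The same library also stood farthest from its replicates over all tested probes, with a score of 1.35 on the main axis of variation between replicates (the first principal component of the deviations from group means), followed by SUM149PT siASAP1 2 at -0.90 and BT549 siASAP1 1 at 0.83. The listed markers of the cell lines are given as a description. After siCtrl, all 6 tested epithelial probes were higher in SUM149PT than in BT549 and in Hs578T (among them EPCAM and KRT17), and 9 of 11 mesenchymal probes were lower than in BT549 and 11 of 11 lower than in Hs578T (among them VIM and SPARC). The mesenchymal marker CDH2 went the other way against BT549. It had 1138, 1606 and 1319 siCtrl reads in SUM149PT and 370, 416 and 360 in BT549. CDH1, KRT17, CLDN4 and GRHL2 had at most 1 siCtrl read in BT549 and Hs578T. The SPARC and COL3A1 probes had at most 5 in SUM149PT. Such probes passed the filter on low values only through the lines in which they were high, which fixed their direction. The mesenchymal marker ZEB1 did not exceed 2.53 and the leukocyte gene PTPRC did not exceed 2.67 in any library. The estrogen receptor gene ESR1, which TNBC lacks as protein, was read in SUM149PT by 1 of its 2 probes (between 24.3 and 191 in the 6 libraries).

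Of the 52 member probes, 41 probes of 36 genes reached a mean normalized count of 10 over the 18 libraries (78.8% of the member probes, against 49.6% of all probes), and 11 did not. The 9 genes without such a probe were FANCE, FANCG and FANCL of the core complex, its ubiquitin-conjugating enzyme UBE2T, the recombination factors RAD51C and RAD51D, the nuclease scaffold SLX4, the kinase CHEK2 and the chromatin reader TP53BP1. Their means ran from 0.445 (TP53BP1) to 7.70 (SLX4), and the remaining probes below the filter were the second probes of BARD1 and BRCA1. ATRIP, FANCA_21007 and BRCA1_26902 lay just inside with means of 12.3, 13.7 and 15.3. The probe BRCA1_757 had 0 reads among 125 M, which allows up to 0.0240 reads per M by counting error alone, while the other BRCA1 probe did collect reads. The values are not per length, so means of different probes say only which of them passed the filter.

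**Figure D1:**
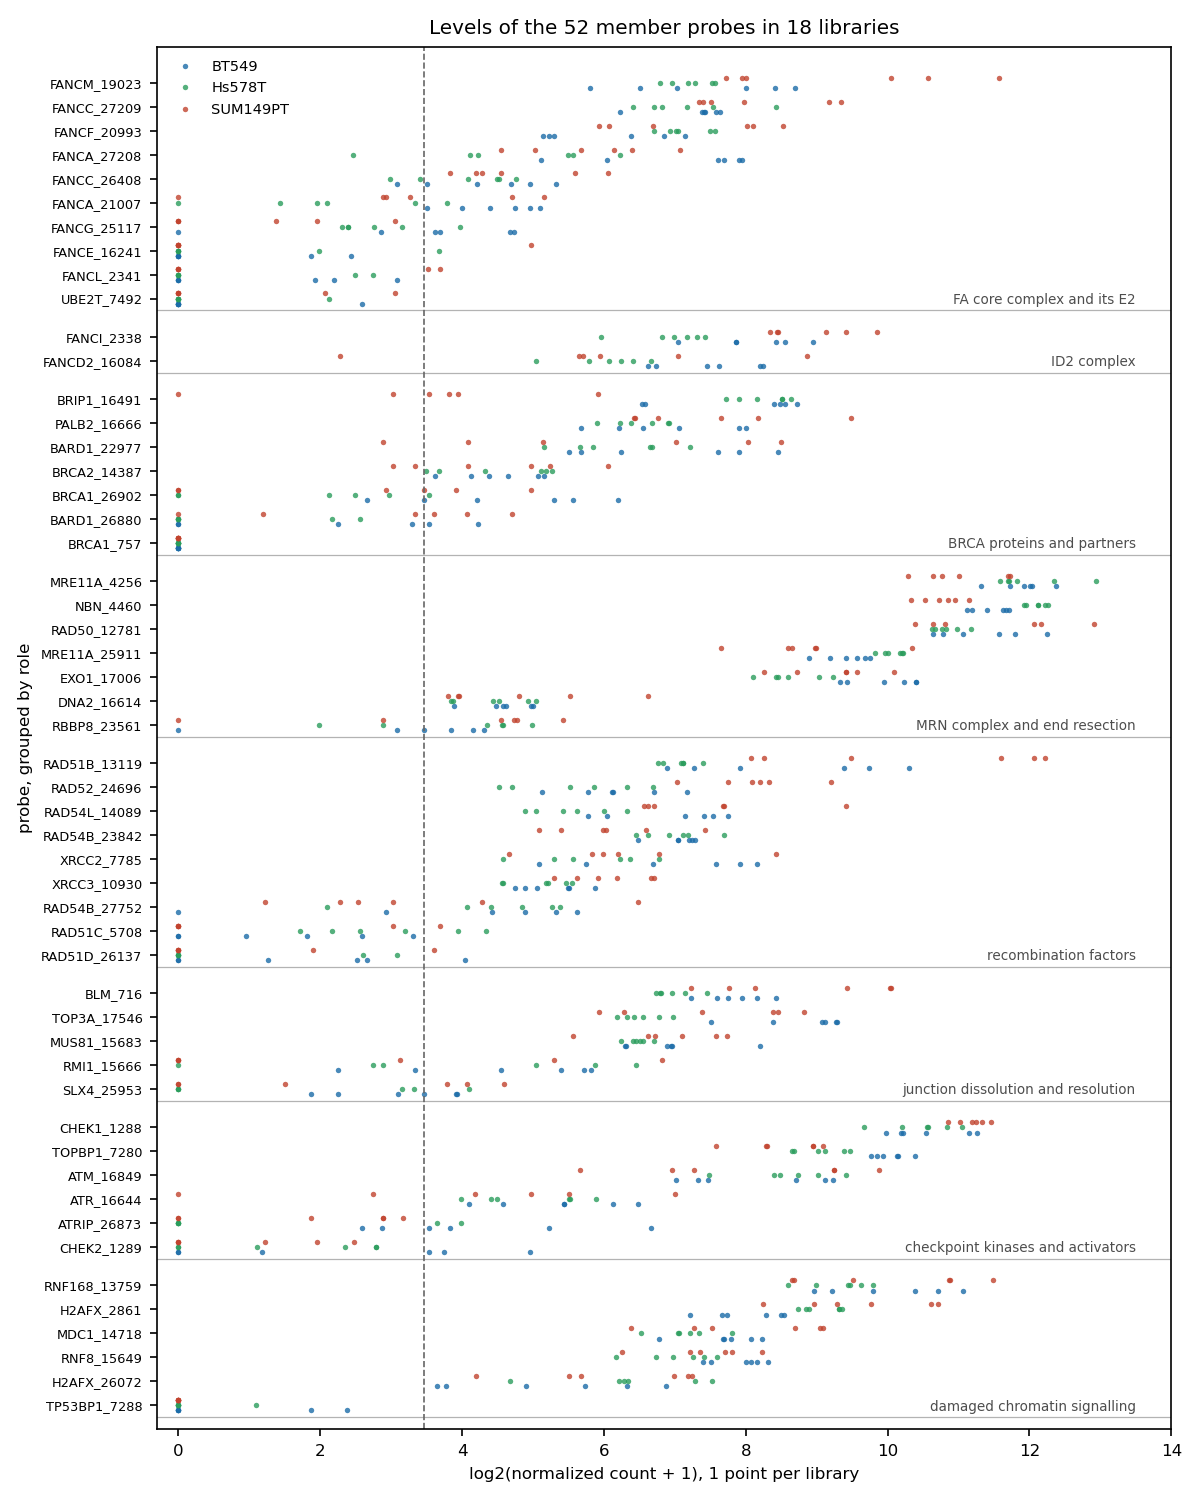
Normalized counts of the 52 member probes on a log2(count + 1) axis, 1 point per library (6 per line, both siRNAs together), grouped by role. The dashed line marks a count of 10: BRCA1_757 sits at 0 throughout, and the SUM149PT points of BRIP1 (at most 59.2) lie below those of both other lines (at least 91.6).

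The genes of the BRCA group come first because SUM149PT is the BRCA1 mutant line. BRCA1_26902 had normalized counts of 0, 10.0 and 30.4 in the siCtrl libraries of SUM149PT, 9.98, 38.4 and 17.5 in those of BT549 and 3.38, 10.6 and 0 in those of Hs578T. After siASAP1 they were 6.61, 14.1 and 0 in SUM149PT, 5.33, 46.3 and 72.1 in BT549 and 6.80, 4.63 and 0 in Hs578T. The ranges of the 3 lines overlapped. The difference between SUM149PT and BT549 after siCtrl was -1.51 on the log2 scale with a 95% interval, which spans 0, from -4.44 to 1.42. BRCA2, which mediates strand exchange, had 7.15, 9.11 and 30.4 in SUM149PT, 32.4, 34.6 and 11.2 in BT549 and 35.4, 33.5 and 37.4 in Hs578T after siCtrl. Its siASAP1 libraries had 15.9, 65.4 and 36.8 in SUM149PT, 24.0, 19.8 and 16.4 in BT549 and 10.2, 19.1 and 11.7 in Hs578T. No pair of siCtrl lines differed in BRCA2 by the test used below, although the 3 SUM149PT libraries lay under the 3 of Hs578T (Log2 FC -1.41 ± 0.71, limma adjusted p = 0.197).

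The lines were compared with each other in the 9 siCtrl libraries, where a probe was called at a Log2 FC beyond 1 in either direction with a limma adjusted p under 0.05. Fold values are on the scale of log2(normalized count + 1), which understates the change of low probes. The sharpest difference among the members was BRIP1, the helicase that binds BRCA1 and is also known as FANCJ. Its siCtrl libraries had 357, 375 and 337 in BT549, 364, 364 and 286 in Hs578T and 7.15, 59.2 and 14.4 in SUM149PT. After siASAP1 it had 421, 91.6 and 94.9 in BT549, 239, 397 and 210.1 in Hs578T and 10.6, 0 and 13.1 in SUM149PT. In no library of SUM149PT did BRIP1 reach the lowest library of another line, and the library labelled SUM149PT siCtrl 2 was the highest of the 6. BRIP1 was 18.2-fold lower in SUM149PT than in BT549 (Log2 FC -4.19 ± 0.64, limma adjusted p = 0.00117) and 17.2-fold lower than in Hs578T (Log2 FC -4.10 ± 0.64, adjusted p = 0.00123). Its call held in both contrasts when any of the 9 libraries was left out, with Log2 FC from -4.99 without the library labelled SUM149PT siCtrl 2 to -3.55 without SUM149PT siCtrl 1 against BT549, and from -4.91 to -3.47 without the same libraries against Hs578T. The 9 siASAP1 libraries, which share no sample with these, gave Log2 FC of -4.83 and -5.64. There BRIP1 passed the filter on low values only through BT549 and Hs578T, in which it was high, so these values are a description. In these bulk lysates, fewer cells that express a gene and less RNA per cell cannot be told apart.

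For BRIP1, for BLM (the smallest p in the interaction test below) and for FANCC (the only member called over 18 libraries), the 250 bases before their RefSeq gene starts are shown from GRCh38.p14, 5′ to 3′ on the strand of the gene. BRIP1 lies at chr17:61863529-61863778 on the minus strand, BLM at chr15:90717096-90717345 on the plus strand and FANCC at chr9:95317710-95317959 on the minus strand. In GENCODE 29 the FANCC gene starts farther upstream, at base 95426796, and the BLM gene 19 bases earlier than in RefSeq, so the FANCC window lies inside that longer gene model. Capitals mark 3 motifs of cell cycle promoters found on either strand, namely the E2F element (TTTGGCGC, TTTCCCGC, TTTCGCGC or TTTGCCGC), the CHR element TTTGAA and the CCAAT box.
BRIP1: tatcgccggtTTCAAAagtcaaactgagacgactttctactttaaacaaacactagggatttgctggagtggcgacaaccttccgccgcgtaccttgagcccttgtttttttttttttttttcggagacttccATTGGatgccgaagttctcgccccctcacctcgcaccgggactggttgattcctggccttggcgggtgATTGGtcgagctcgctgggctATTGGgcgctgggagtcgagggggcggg
BLM: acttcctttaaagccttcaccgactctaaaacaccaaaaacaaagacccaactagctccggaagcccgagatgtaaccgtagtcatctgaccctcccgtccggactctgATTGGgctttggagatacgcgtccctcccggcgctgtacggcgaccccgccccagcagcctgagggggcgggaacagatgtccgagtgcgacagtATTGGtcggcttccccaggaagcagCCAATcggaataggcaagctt
FANCC: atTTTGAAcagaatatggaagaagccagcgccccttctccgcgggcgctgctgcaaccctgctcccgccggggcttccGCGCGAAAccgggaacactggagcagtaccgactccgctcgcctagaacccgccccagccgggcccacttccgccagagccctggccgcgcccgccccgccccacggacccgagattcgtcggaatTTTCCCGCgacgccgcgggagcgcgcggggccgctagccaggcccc
BRIP1 and BLM each hold 3 CCAAT boxes (ATTGG where the box lies on the other strand), BRIP1 holds a CHR element as well, and FANCC holds 2 E2F elements and 1 CHR element but no CCAAT box. Promoters of 41 of the 45 members were in the table, without FANCI, NBN, DNA2 and RAD54B. The E2F element was found in 2 of the 41 (4.9%, the other in FANCA), against 2.8% of 27305 promoters, the CHR element in 6 (14.6% against 13.6%) and the CCAAT box in 20 (48.8% against 33.0%). None of the matches in the 3 windows overlaps another. A match describes the letters of the window and is no sign of a bound factor.

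BRIP1 was 1 of 5 called among 40 member probes between SUM149PT and BT549 where 18.2% of all tested probes were called (4 higher against 9.40% of all probes, 1 lower against 8.76%). The median Log2 FC of the members was -0.40, against -0.04 over all probes. It was -0.66 without the library labelled SUM149PT siCtrl 2, -0.05 without SUM149PT siCtrl 1, -0.06 without SUM149PT siCtrl 3 and -0.05 in the siASAP1 libraries. BLM, the helicase that dissolves double Holliday junctions, had 1047, 684 and 1057 in SUM149PT, 148, 246 and 214 in BT549 and 111, 105 and 174 in Hs578T. All 3 siCtrl libraries of SUM149PT were above every library of the other lines, and BLM was 4.57-fold higher than in BT549 (limma adjusted p = 0.00233). FANCI, the partner of FANCD2, had 561, 922 and 681 in SUM149PT, 131, 231 and 342 in BT549 and 143, 61.2 and 158 in Hs578T, 3.23-fold higher than in BT549 (adjusted p = 0.0390). RAD52, a strand annealing protein, had 215, 585 and 270.1 in SUM149PT, 53.7, 103 and 68.7 in BT549 and 21.9, 57.1 and 102 in Hs578T, 4.42-fold higher than in BT549 (adjusted p = 0.0400). The SUM149PT siCtrl libraries of both genes lay above the siCtrl libraries of the other lines. RAD52 lost its call when any of 7 of the 9 libraries was left out (Log2 FC from 1.72 to 2.44), and FANCI lost it when any of 6 was (Log2 FC from 1.33 to 2.02). The histone variant H2AFX, phosphorylated around breaks, was read by H2AFX_2861 at 1566, 623 and 1672 in SUM149PT, 311, 148 and 212 in BT549 and 656, 472 and 460.1 in Hs578T. It was 5.49-fold higher in SUM149PT than in BT549 (adjusted p = 0.00369), and the library labelled SUM149PT siCtrl 2 was the lowest of its group for both H2AFX and BLM.

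Between SUM149PT and Hs578T, 5 of 40 member probes were called as well, against 20.2% of all probes (3 higher against 9.64%, 2 lower against 10.5%), and the members' median Log2 FC was 0.59 against -0.00189 over all probes. Without the library labelled SUM149PT siCtrl 2 it was 0.12, against -0.08 over all probes, and with any other library left out between 0.46 and 0.76. BLM (7.15-fold, limma adjusted p = 0.000416), FANCI (6.28-fold, adjusted p = 0.00356) and RAD52 (6.28-fold, adjusted p = 0.0140) were higher in SUM149PT. The SUM149PT libraries serve in both contrasts. NBN, the third subunit of the MRN complex, had 1981, 1280.0 and 2263 in SUM149PT, 2335, 2225 and 2704 in BT549 and 3871, 4891 and 3969 in Hs578T. It was 2.36-fold lower in SUM149PT than in Hs578T (Log2 FC -1.24 ± 0.31, adjusted p = 0.0175). NBN after siASAP1 was 1854, 1472 and 1697 in SUM149PT, 3363, 3158 and 3246 in BT549 and 4429, 4759 and 4447 in Hs578T, in the same order of lines. Its call was lost when Hs578T siCtrl 1 or 2 or the library labelled SUM149PT siCtrl 2 was left out, with Log2 FC between -1.41 and -0.99, and that of RAD52 when Hs578T siCtrl 1 was (Log2 FC 2.07).

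Between BT549 and Hs578T, both mesenchymal-like, 1 of 40 member probes was called, against 13.8% of all probes, with a median Log2 FC of 0.51 against 0.01 (from 0.26 without Hs578T siCtrl 3 and 0.33 without BT549 siCtrl 2 to 0.72). EXO1, the exonuclease of long-range resection, had 987, 1206 and 1353 in BT549, 522, 273 and 599 in Hs578T and 679, 1087 and 759 in SUM149PT after siCtrl. After siASAP1 it had 1344, 645 and 684 in BT549, 386, 350.4 and 342 in Hs578T and 679, 304 and 419 in SUM149PT. The 3 BT549 siCtrl libraries were above the 3 of Hs578T, by 2.66-fold (limma adjusted p = 0.0320). The call was lost without BT549 siCtrl 2 or 3 or Hs578T siCtrl 1 or 2 (Log2 FC from 1.07 to 1.63 over all 9 such fits). TOP3A, the topoisomerase partner of BLM, had 181, 618 and 624 in BT549 and 79.3, 84.9 and 71.9 in Hs578T and missed the threshold (adjusted p = 0.0704).

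The library labelled SUM149PT siCtrl 2 carries much of the spread behind these counts. Without it, 14 of 40 member probes were called between SUM149PT and BT549 (7 higher, 7 lower, 33.2% of all probes), 10 of 40 between SUM149PT and Hs578T (7 higher, 3 lower, 30.7%), and 5 of 40 between BT549 and Hs578T (21.3%). The 2 remaining SUM149PT siCtrl libraries are then assumed to vary like the other groups. BRIP1 (Log2 FC against BT549 and Hs578T of -4.99 and -4.91), BLM (2.40 and 3.04) and H2AFX_2861 (2.92 and 1.63) were called against both lines. So were FANCC_27209 (1.72 and 1.55), MDC1 (1.34 and 1.71) and CHEK1 (1.17 and 1.15), all 3 higher in SUM149PT, whereas FANCI and RAD52 were called against Hs578T and not against BT549. The kinase ATM was also called lower in SUM149PT against both lines (-2.12 and -2.54), with siCtrl values of 123, 943 and 49.6 in SUM149PT, so that this call rested on leaving out the library with the highest ATM. Of the 7 lower than in BT549, RMI1, a partner of BLM (0, 123 and 0 reads in SUM149PT, 18, 88 and 74 in BT549 and 38, 106 and 0 in Hs578T), and FANCA_21007 (6, 38 and 0 reads in SUM149PT, 12, 53 and 43 in BT549 and 2, 4 and 0 in Hs578T) passed the filter on low values only through lines in which they were high, BT549 and Hs578T for RMI1 and BT549 for FANCA_21007.

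The line differences were then read in the 9 siASAP1 libraries. There 5 member probes were called between SUM149PT and BT549 (21.7% of all probes), 11 between SUM149PT and Hs578T (27.9%) and 4 between BT549 and Hs578T (19.5%). The probes called in both sets of libraries with the same sign were BRIP1 in the first contrast, BRIP1, FANCI, RAD52 and NBN in the second and EXO1 in the third. In the siASAP1 libraries BRIP1 passed the filter on low values only through BT549 and Hs578T, so its second call is a description. BLM was not among the probes called in both sets. After siASAP1, BLM had 217, 279 and 148 in SUM149PT, 192, 284 and 343 in BT549 and 124, 109.9 and 139.7 in Hs578T, and the SUM149PT libraries overlapped with those of BT549 (Log2 FC -0.35, limma adjusted p = 0.571). FANCI likewise stood at 323, 346 and 348 in SUM149PT and 232, 376 and 492 in BT549 (with 112, 125 and 171 in Hs578T), with overlap between SUM149PT and BT549 (Log2 FC -0.05). RAD52 had 319, 129 and 293 in SUM149PT, 68.4, 34.0 and 143 in BT549 and 24.9, 45.1 and 78.9 in Hs578T after siASAP1, and H2AFX_2861 had 302, 872 and 499, 201, 369 and 359.5 and 424, 638 and 637 in the same order of lines. TOPBP1, the activator of ATR, was called lower in SUM149PT than in BT549 in these libraries (Log2 FC -2.04, adjusted p = 0.00129) and missed the threshold in the siCtrl libraries (Log2 FC -0.97, adjusted p = 0.0538).

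**Figure D2:**
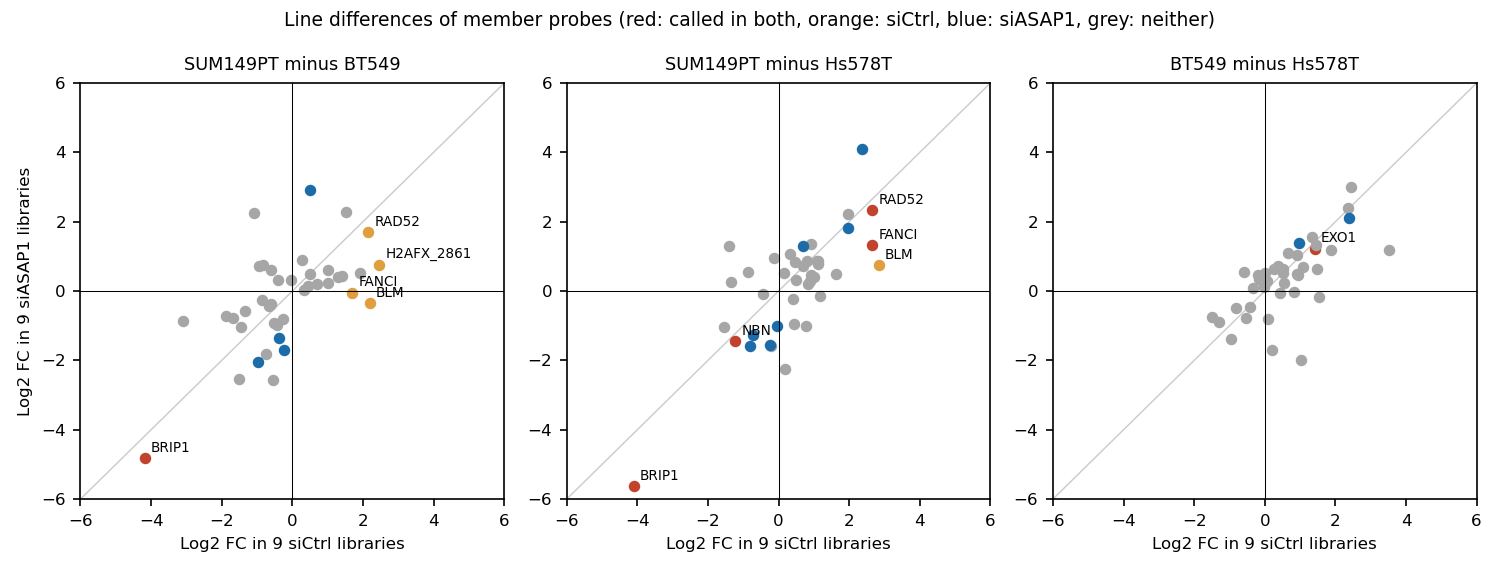
Log2 FC of member probes between lines in the 9 siCtrl libraries (x axis) and in the 9 siASAP1 libraries (y axis), 1 panel per pair of lines, with the diagonal in grey. BRIP1 is far below 0 on both axes of both SUM149PT panels, whereas BLM and FANCI lie near 0 on the y axis of the first panel (-0.35 and -0.05).

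siASAP1 was compared with siCtrl within each line, and a probe was called where the Log2 FC was over 1 or under -1 and the p before adjustment was under 0.05, the limits the study used. In SUM149PT, 3 of 41 member probes were called, all lower, where 9.56% of all tested probes were called in either direction and 4.29% lower. BLM had 217, 279 and 148 after siASAP1 and 1047, 684 and 1057 after siCtrl. The groups did not overlap, and BLM was 4.36-fold lower after siASAP1 (Log2 FC -2.13 ± 0.43, limma adjusted p = 0.331). FANCC, a core complex subunit, was read by FANCC_27209 at 181, 162 and 167 after siASAP1 and 649, 249.6 and 579 after siCtrl (Log2 FC -1.42 ± 0.49, limma adjusted p = 0.415). FANCI had 323, 346 and 348 after siASAP1 and 561, 922 and 681 after siCtrl (Log2 FC -1.06 ± 0.38, limma adjusted p = 0.431). For both genes the siASAP1 libraries were close together and below every siCtrl library. No member passed an adjusted p of 0.05, as 0 of all 10078 probes did by limma (1025 at an unadjusted p under 0.05). The groups did not overlap for 6 of the 41 member probes, against 17.3% of all probes, and the median Log2 FC was -0.15, against 0.09 over all probes and 0.09 against 0.30 when libraries were scaled by their totals. With 1 library left out it lay between -0.45 and -0.04.

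BLM was called in each fit that left out 1 library of SUM149PT. FANCC_27209 lost its call without SUM149PT siASAP1 3, siCtrl 1 or siCtrl 3 (Log2 FC from -1.85 to -1.16), and FANCI lost it without siASAP1 1 or 3, siCtrl 3 or the library labelled siCtrl 2 (Log2 FC from -1.22 to -0.86). Without the library labelled SUM149PT siCtrl 2, 10 of 38 member probes were called (5 higher, 5 lower), where 23.4% of all probes were called. The 5 lower were then BLM (Log2 FC -2.33 ± 0.41), FANCC_27209 (-1.85), H2AFX_2861 (-1.67), the nuclease probe MRE11A_4256 (-1.07) and the H2AFX-binding scaffold MDC1 (-1.23). The 5 higher were the recombination factor RAD51B (2.93), TOP3A (1.97), the ubiquitin ligase RNF168 (1.96), ATM (2.28) and RBBP8, which encodes CtIP (3.24, with 17, 20 and 20 reads after siASAP1 and 0, 46 and 4 after siCtrl). RBBP8 passed the filter on low values in this fit only through the siASAP1 libraries in which it was high. RAD51B had 4757, 717 and 3109 after siASAP1 and 269, 4284 and 305 after siCtrl. The spread within either group of RAD51B was several-fold, and the library labelled siCtrl 2 stood with the higher siASAP1 libraries.

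Beside the members, 4 of 17 tested probes of proliferation markers were called lower in SUM149PT after siASAP1. The summed normalized count of the 19 listed was 7839, 15006 and 9891 after siASAP1 and 35492, 18846 and 38872 after siCtrl, and the 4 called were MCM6, CCNA2, MCM7 and MCM3 (Log2 FC of -1.95, -1.39, -1.60 and -1.47). MCM proteins form the replicative helicase, and CCNA2 is the cyclin of S phase. The thymidylate synthase probe TYMS contributed the most reads to the sum in these libraries. Other markers of the list did not follow the sum: CDK1, the mitotic kinase, had 192, 66.7 and 396 after siASAP1 and 78.7, 2442 and 51.2 after siCtrl, and CCNB1, its cyclin, 163, 64.1 and 181 and 122, 1539 and 110.3. For both, the library labelled siCtrl 2 was the highest of the 6 and the other siCtrl libraries overlapped with the siASAP1 libraries. Without that library 9 of 18 probes of the list were called, all lower, where 23.4% of all probes were. The sums did not overlap between the groups, and the library labelled siCtrl 2 was the lowest of the 3 siCtrl libraries. Many of the members are also expressed with the cell cycle, and what part of the BLM, FANCI and FANCC changes went with proliferation was not tested. In BT549 and Hs578T, MCM6 was the only 1 of 19 and of 18 tested proliferation probes to be called (2.28-fold and 2.01-fold lower), while FANCC_27209 was lower in Hs578T as well. Over 18 libraries MCM6 was again the only called probe of the list (-1.38, limma adjusted p = 0.00348).

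In Hs578T, 3 of 38 member probes were called, where 2.78% of all tested probes were (1 higher against 1.34% of all probes, 2 lower against 1.44%). FANCC_27209 had 112, 103 and 84.2 after siASAP1 and 186, 143 and 342 after siCtrl, 2.09-fold lower with no overlap (Log2 FC -1.06 ± 0.39, limma adjusted p = 0.915). BRCA2 had 10.2, 19.1 and 11.7 against 35.4, 33.5 and 37.4, also without overlap (Log2 FC -1.36 ± 0.57, limma adjusted p = 0.923). These are low counts, with 9, 33 and 11 reads of BRCA2 in the siASAP1 libraries and 42, 41 and 38 in the siCtrl libraries. H2AFX_26072 had 154, 72.9 and 182 after siASAP1 and 76.8, 24.5 and 79.8 after siCtrl, with overlap (Log2 FC 1.24 ± 0.55, limma adjusted p = 0.923), whereas the other probe, H2AFX_2861, had a Log2 FC of 0.09 ± 0.30. H2AFX_26072 had 50.3, 126 and 44.7 against 150.2, 17.3 and 144 in SUM149PT and 11.6, 116 and 79.4 against 52.4, 28.9 and 12.6 in BT549. None of the 9500 probes passed an adjusted p of 0.05 by limma (502 at an unadjusted p under 0.05), and the members' median Log2 FC was -0.02 against 0.01. With 1 library left out that median lay between -0.07 (without Hs578T siCtrl 3) and 0.01 (without Hs578T siCtrl 2). The groups did not overlap for 5 of the 38 member probes, against 12.1% of all probes. Each of the 3 calls was lost when some single library was left out. BRCA2 was called in 1 of the 6 such fits (Log2 FC from -1.61 to -1.19), H2AFX_26072 lost its call without siASAP1 1 or 3 or siCtrl 2 (0.69 to 1.63), and FANCC_27209 lost it without siASAP1 3 or siCtrl 3 (-1.34 to -0.71).

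In BT549, 1 of 42 member probes was called, where 6.97% of all tested probes were. ATRIP, the partner that brings ATR to exposed single strands, had 36.4, 13.2 and 100.4 after siASAP1 and 4.99, 6.29 and 10.5 after siCtrl (Log2 FC 2.25 ± 0.88, limma adjusted p = 0.611). The siASAP1 libraries lay above the siCtrl libraries, whose ATRIP reads numbered 4, 10 and 15, and the call was lost without siASAP1 1 or 3 or siCtrl 1 or 2 (Log2 FC from 1.54 to 2.95). The siCtrl mean was 7.27, so that ATRIP passed the filter on low values only through the siASAP1 libraries in which it was high. In SUM149PT it had 2.65, 6.41 and 0 after siASAP1 and 0, 6.38 and 7.99 after siCtrl, and in Hs578T 0, 11.6 and 0 and 0, 0 and 14.8. CHEK1, the effector kinase of ATR, had 1485, 2259 and 2463 after siASAP1 and 1008, 1163 and 1186 after siCtrl, without overlap, and stayed under the fold limit (Log2 FC 0.86 ± 0.34, limma adjusted p = 0.613). None of the 9666 probes passed an adjusted p of 0.05 by limma (754 at an unadjusted p under 0.05), and the median Log2 FC was -0.01 for the members and -0.00153 over all probes. With 1 library left out the members' median lay between -0.34 (without BT549 siCtrl 1) and 0.15 (without BT549 siCtrl 2). The groups did not overlap for 4 of the 42 member probes, against 13.9% of all probes. BT549 siASAP1 1 stood apart here: without it, 12 of 42 member probes were called (3 higher, 9 lower), where 22.5% of all probes were. Of the 9 lower, RMI1 (46, 4 and 10 reads after siASAP1 and 18, 88 and 74 after siCtrl) and RAD54B_27752 (54, 7 and 0 reads after siASAP1 and 23, 62 and 29 after siCtrl) passed the filter on low values only through the siCtrl libraries. BRIP1 was then lower (Log2 FC -1.92 ± 0.32, limma adjusted p = 0.0260) and CHEK1 higher (1.08 ± 0.26, adjusted p = 0.0497). The siASAP1 values of BRIP1 in BT549, 421, 91.6 and 94.9, show that its first library sat above every siCtrl library and the other 2 below them.

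Over all 18 libraries, with the line as a covariate, 1 of 41 member probes had a limma adjusted p under 0.05, where 1.74% of all probes did. This was FANCC_27209, which was 2.01-fold lower after siASAP1 (Log2 FC -1.01 ± 0.25, adjusted p = 0.0477). In BT549 it had 73.8, 169.9 and 165 after siASAP1 and 189.7, 199 and 170.5 after siCtrl, so that in each of the 3 lines all siASAP1 libraries lay below all siCtrl libraries of that line. The adjusted p rose over the threshold, to between 0.0554 and 0.0995, when any of 14 of the 18 libraries was left out, and the Log2 FC over the 18 such fits ran from -1.10 to -0.90. The 4 libraries without which it was still called were the library labelled SUM149PT siCtrl 2, BT549 siASAP1 2 and 3 and Hs578T siCtrl 2. The call was also lost with scaling by library totals (adjusted p = 0.0697), without a filter on low values (0.0752), with the probes of a symbol summed (0.0595) and in a fit blocked on replicate numbers (0.129). The second FANCC probe, FANCC_26408, gave 0.09 ± 0.43 and had r = -0.09 with the first within groups over the 18 libraries. Its values were 13.2, 65.4 and 18.4 after siASAP1 and 47.2, 17.3 and 22.4 after siCtrl in SUM149PT. Which transcripts of FANCC each probe reads was not tested.

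CHEK1 came next, 1.45-fold higher (Log2 FC 0.54 ± 0.18, limma adjusted p = 0.128). In Hs578T its values were 1819.8, 1519 and 2109 after siASAP1 and 1181, 815 and 1498 after siCtrl, without overlap, and in SUM149PT 2076, 2810.1 and 2333 and 2434, 1838 and 2582, with overlap. EXO1 (Log2 FC -0.56 ± 0.22), FANCD2 (-1.31 ± 0.51) and BRIP1 (-1.12 ± 0.50) had an unadjusted p under 0.05 and adjusted p of 0.198, 0.201 and 0.280. With 1 library left out, these Log2 FC ran from -0.67 to -0.46, from -1.52 to -0.89 and from -1.32 to -0.71. BRIP1 was low in SUM149PT, with 8, 0 and 10 reads after siASAP1 and 5, 65 and 9 after siCtrl. With CHEK1 and FANCC_27209 included, 5 of 41 member probes had an unadjusted p under 0.05, against 15.8% of all probes. The median Log2 FC of the members was -0.05, against 0.02 over all probes. It turned to 0.05, against 0.04 over all probes, without the library labelled SUM149PT siCtrl 2, and to 0.04 against 0.15 with scaling by library totals. With any other library left out the members' median lay between -0.19 (without SUM149PT siCtrl 1) and -0.01 (without Hs578T siCtrl 1).

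By role, the remaining members showed no further call over the 18 libraries. Of the core complex and its E2, 1 of 6 tested probes was called (FANCC_27209), and FANCA_21007 lay highest at 0.69 ± 0.61. The 2 probes of the FANCD2 and FANCI pair were uncalled. FANCD2 in SUM149PT had 49.0, 3.85 and 60.4 after siASAP1 and 132, 463 and 51.2 after siCtrl. The library labelled siCtrl 2 was by far the highest of these 6, and with the other 2 siCtrl libraries alone the Log2 FC in SUM149PT went from -2.58 to -1.76. The lowest of the 6, SUM149PT siASAP1 2, had 3 reads of FANCD2. On the log2 scale it lay farther from its group mean (-2.34) than the library labelled siCtrl 2 did from its own (1.65). Of the BRCA proteins and partners 0 of 5 were called, with BRIP1 lowest and PALB2, which bridges BRCA1 and BRCA2, at -0.05 ± 0.41. Of the MRN complex and resection genes 0 of 7 were called, from EXO1 at the low end to RBBP8 at 0.34 ± 0.73. The recombination factors (0 of 7) ran from RAD54B_27752, a motor protein of recombination, at -0.82 ± 0.76 to RAD51B at 0.26 ± 0.59. The junction genes (0 of 4) ran from BLM at -0.58 ± 0.32 to the nuclease MUS81 at 0.57 ± 0.28. The checkpoint genes (0 of 5) ran from the kinase ATR at -0.87 ± 0.67 to ATRIP at 0.57 ± 0.75, and the damaged chromatin genes (0 of 5) from MDC1 at -0.25 ± 0.34 to H2AFX_26072 at 0.64 ± 0.52. Over the 18 libraries too, ATRIP passed the filter on low values only through siASAP1 libraries, mainly those of BT549. Its direction is therefore a description.

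**Figure D3:**
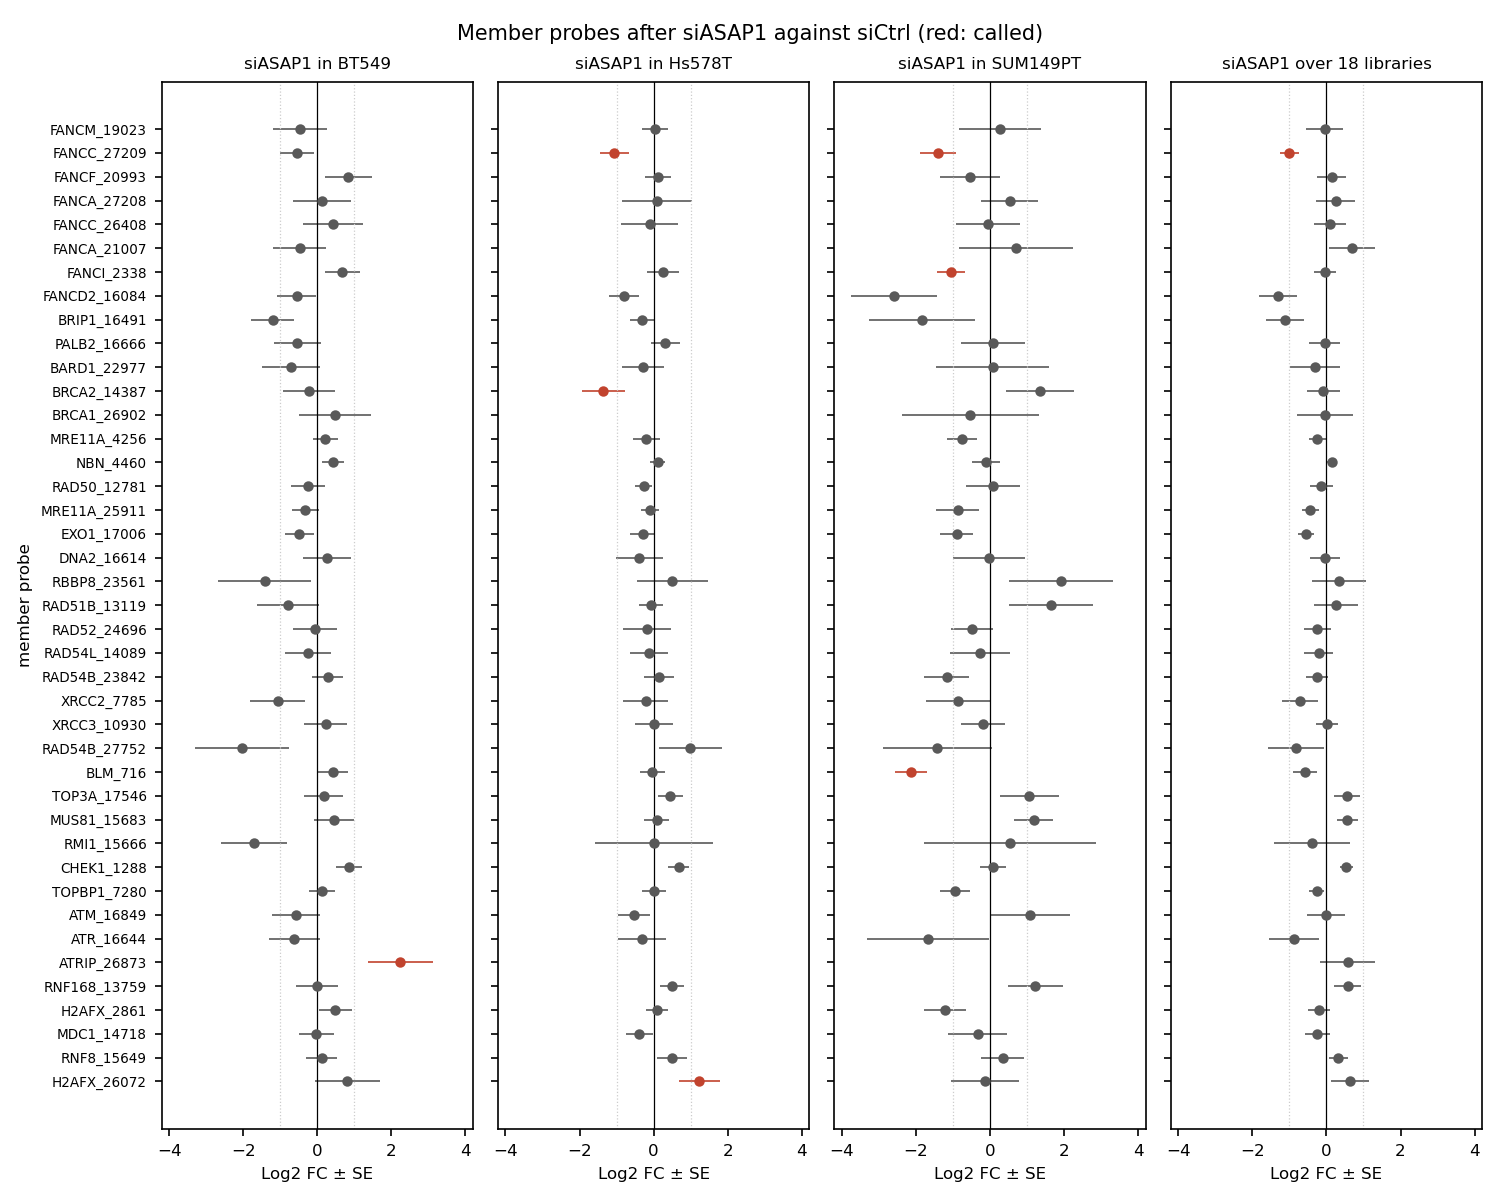
Log2 FC of siASAP1 against siCtrl with its SE for the 41 member probes that averaged at least 10 over the 18 libraries, in each line (6 libraries) and over 18 libraries, with called probes in red and dotted lines at -1 and 1. FANCC_27209 is red in 3 of the 4 panels.

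Whether the lines responded differently was tested with the interaction of line and siRNA. No member passed an adjusted p of 0.05 by limma, where 0.00955% of all probes did (1 of 10475), and 5 of 41 members had an unadjusted p under 0.05, against 6.22% of all probes. BLM had the smallest p among the members (limma adjusted p = 0.123), with a Log2 FC of -2.13 in SUM149PT, 0.42 in BT549 and -0.03 in Hs578T. The other 4 were FANCI (0.68, 0.26 and -1.06), BRCA2 (-0.23, -1.36 and 1.34), H2AFX_2861 (0.48, 0.09 and -1.21) and TOPBP1 (0.13, 0.02 and -0.94), each in the order BT549, Hs578T, SUM149PT. Without the library labelled SUM149PT siCtrl 2, BLM had a limma adjusted p of 0.0525 and H2AFX_2861 of 0.178, and BRCA2, FANCI and TOPBP1 had an unadjusted p over 0.05 (adjusted p = 0.362, 0.352 and 0.360). The siCtrl libraries of SUM149PT enter both this contrast and the line differences above, so the values for BLM and FANCI in both are not independent.

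**Figure D4:**
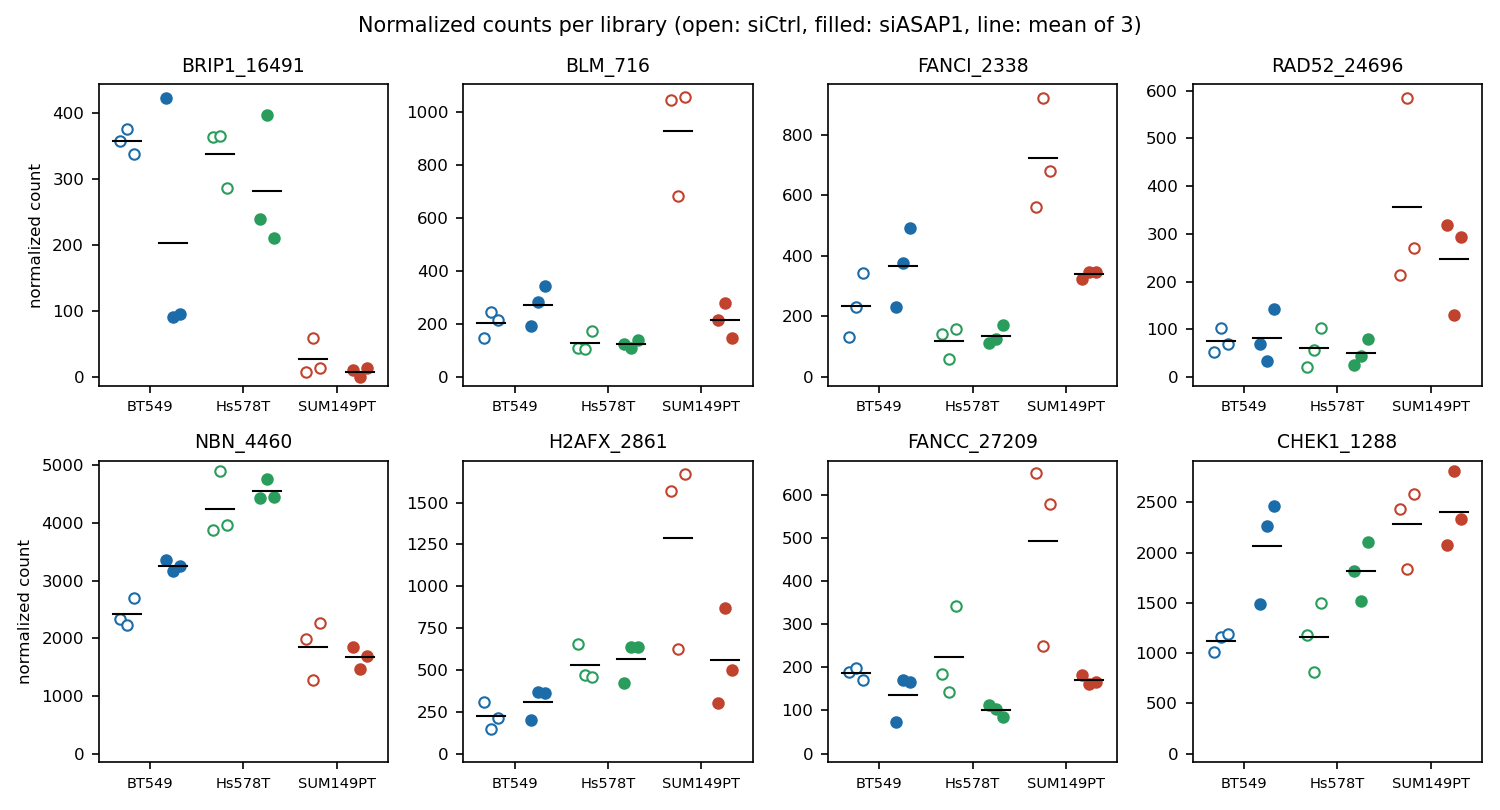
Normalized counts of 8 member probes, 1 point per library (open siCtrl, filled siASAP1) with a line at the mean of 3. In SUM149PT the siCtrl points of BLM (lowest 684) stand above all other points of that probe, and BRIP1 is at most 59.2 in the same line.

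Other genes of these pathways were taken from lists of their known members, and the share of all probes called in each contrast is as given above. In SUM149PT after siASAP1, 3 of 17 probes of other Fanconi and crosslink repair genes were called, all lower, namely APITD1 (Log2 FC -1.54), a histone-fold partner of FANCM, MAD2L2 of the translesion polymerase (with 0, 0 and 4 reads after siASAP1 and 15, 30 and 17 after siCtrl), and the ubiquitin ligase RFWD3 (-1.55). Of the 19 tested probes of other homologous recombination genes 0 were called. Of other checkpoint genes 1 of 22 was called, the fork protection factor TIMELESS (with 1, 0 and 0 reads after siASAP1 and 50, 3 and 42 after siCtrl), and of end joining genes 0 of 9, where XRCC5, which encodes KU80, came closest (-0.91). MAD2L2 and TIMELESS passed the filter on low values only through the siCtrl libraries in which they were high. Without the library labelled siCtrl 2, where 23.4% of all probes were called, the counts of these 4 lists were 3 of 18, 1 of 19, 5 of 22 and 4 of 10, with APITD1, RFWD3 and TIMELESS called lower as before and MAD2L2 not called. In BT549, 0 of 17, 0 of 18 and 0 of 23 probes of other Fanconi and crosslink, homologous recombination and checkpoint genes were called and 1 of 10 of the end joining list, the kinase gene PRKDC, which was higher (1.28). In Hs578T none of the 17, 17, 23 and 9 tested probes was, with the checkpoint adaptor TIPIN closest (-0.68, limma adjusted p = 0.923). Over 18 libraries none of the 4 lists held a probe with an adjusted p under 0.05. The smallest p belonged to the end joining scaffold XRCC4 (-0.65, limma adjusted p = 0.0652) and TIPIN (-0.83, adjusted p = 0.0796).

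Between the lines after siCtrl, 2 of 17 tested probes of other homologous recombination genes were called between SUM149PT and BT549 and 2 of 17 between SUM149PT and Hs578T, all higher in SUM149PT. Against BT549 they were SHFM1, whose product DSS1 binds BRCA2 (Log2 FC 1.57), and SWSAP1. Against Hs578T they were the helicase HELB (3.90) and SWSAP1, which had 20, 30 and 17 reads in SUM149PT, 0, 9 and 13 in BT549 and 0, 0 and 0 in Hs578T and so passed the filter on low values through SUM149PT. Of other Fanconi and crosslink genes, 4 of 17 were called between SUM149PT and BT549 (3 higher, 1 lower) and 3 of 17 between SUM149PT and Hs578T (1 higher, 2 lower). The nuclease FAN1 was higher in SUM149PT in both (Log2 FC 2.23 and 2.24), and ERCC1, the partner of the XPF nuclease, was lower than in Hs578T (-2.51). Of other checkpoint genes 0 of 23 were called against BT549 and 2 of 23 against Hs578T, BRCC3 (2.29), the deubiquitinase of the BRCA1-A complex, and TIPIN (1.21). BRCC3 was also the only 1 of 23 called between BT549 and Hs578T (2.16), and 0 of 9 end joining probes were called in any of the 3 contrasts. Without the library labelled SUM149PT siCtrl 2 the counts against BT549 were 5 of 17 for other Fanconi and crosslink genes, 5 of 15 for homologous recombination, 3 of 23 for checkpoint and 2 of 9 for end joining genes, and against Hs578T 6 of 17, 3 of 15, 1 of 23 and 1 of 9. SHFM1, FAN1, ERCC1 and BRCC3 kept the calls given here, HELB and TIPIN lost theirs against Hs578T, and SWSAP1 no longer passed the filter.

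Much of the spread of these genes lay between replicates. Over the 41 member probes, the line took a median of 36.0% of the variance across the 18 libraries, the siRNA within lines 11.7% and the replicates 50.9%, against 38.0%, 10.4% and 44.3% over all 10475 probes. These are shares of the raw sum of squares, not adjusted for degrees of freedom, most of which lie between replicates. A share therefore does not by itself show an effect of line or siRNA. NBN was the most line-bound member (86.3% of its variance, against 8.76% between replicates), followed by BRIP1 at 78.3%. DNA2, a resection nuclease, and BARD1_22977, the partner of BRCA1, varied mainly between replicates (92.5% and 90.2%). Within groups, ATM, BARD1_22977, RAD50 and FANCM followed the main axis of variation between replicates most closely (r = 0.96, 0.96, 0.95 and 0.94 over 18 libraries), and MDC1, FANCF and H2AFX_26072 ran against it (r = -0.94, -0.92 and -0.90). The axis was computed from all tested probes, these included, and took 42.5% of the variance between replicates. RAD50, the coiled-coil subunit of the MRN complex, had 4567, 1339.7 and 4298 after siASAP1 and 1799, 7660.1 and 1587 after siCtrl. High values stood in 2 siASAP1 libraries and in the library labelled siCtrl 2, so that neither siRNA was higher throughout. Of the members, 14 of 41 had r over 0.7 with the axis (34.1%, against 20.5% of all probes) and 8 had r under -0.7 (19.5%, against 16.1%). BLM and FANCC_27209 had r of -0.72 and -0.75, and FANCI -0.07.

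**Figure D5:**
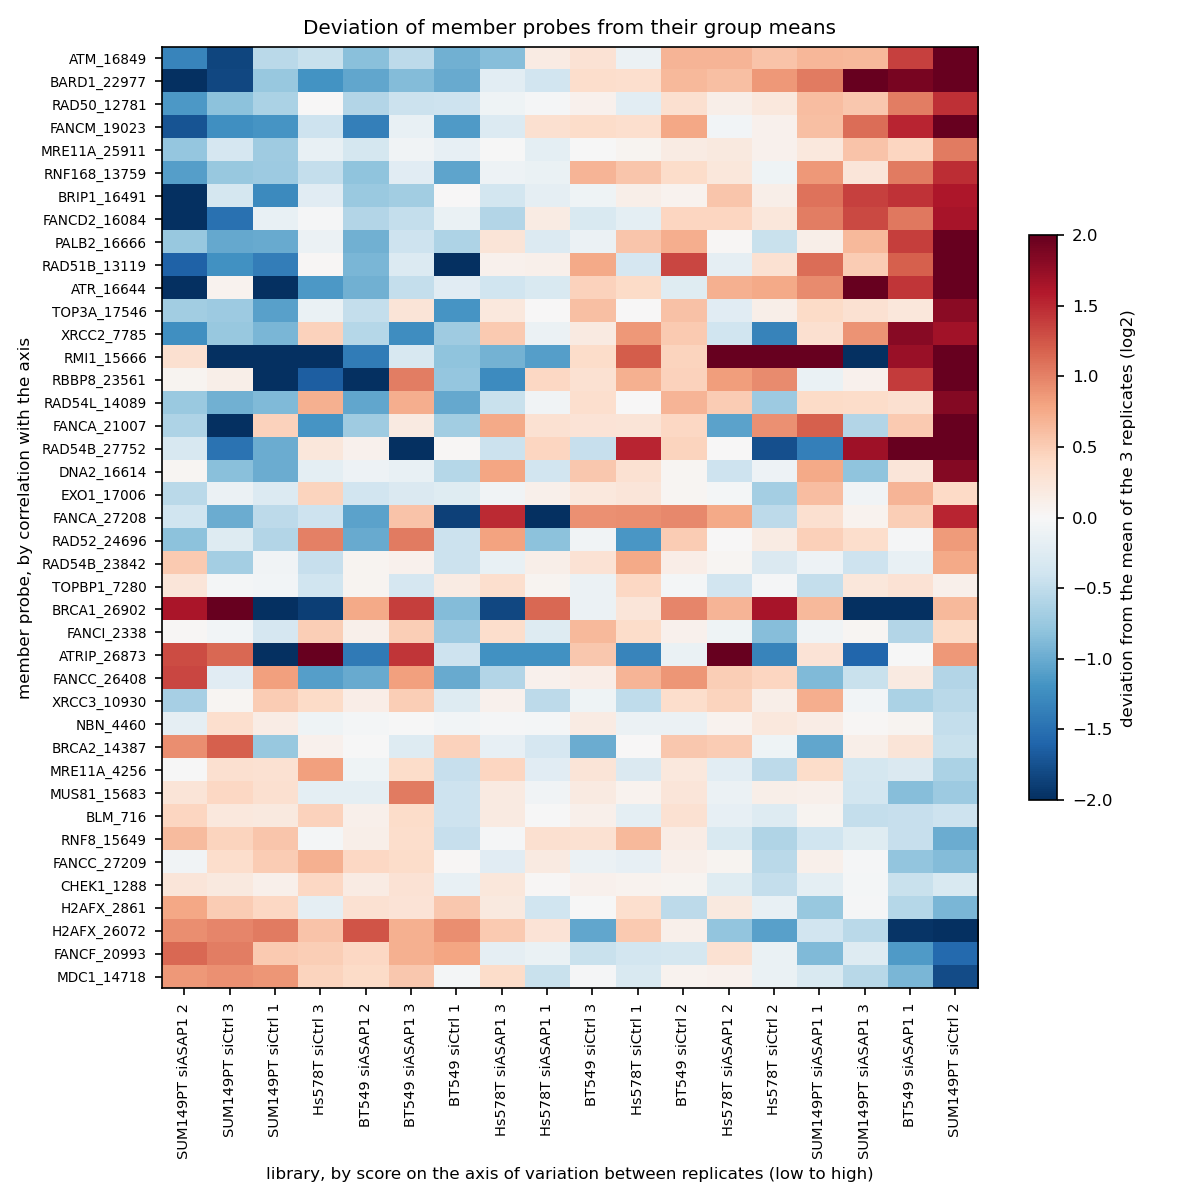
Deviation of each of the 41 member probes (rows) from the mean of its group of 3, on the log2 scale, in the 18 libraries (columns) ordered by their score on the axis of variation between replicates. The library labelled SUM149PT siCtrl 2, at the right end with a score of 1.35, is high for ATM, BARD1 and RAD50 and low for MDC1 and FANCF, and SUM149PT siASAP1 2, at the left end, is the reverse.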

How the data were processed

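TempO-Seq was run on 18 lysates, 3 for each of 6 combinations of line and siRNA, and the members and gene lists were chosen with earlier results of these data known. The authors deposited 1 table of log2 values, which equal log2 of the reads of a probe divided by a library size factor, plus 1. The submitters' processing notes name bcl2fastq, Bowtie and DESeq2, and the genome build is not given in the sources used here. Reads were recovered from the steps of each library, and 100% of the values came out whole within 0.02 of a read. Probes that averaged 10 or more normalized counts over the compared libraries were fitted with limma 3.58.1 in R 4.3.3 (lmFit, eBayes with a trend) on all probes, with Benjamini-Hochberg adjustment. Comparisons were within a line (6 libraries), over 18 libraries with the line as a covariate, their interaction, and between lines in 9 siCtrl libraries. Each result was repeated under other scalings, filters, fits and with libraries left out. The fit was also tested on simulated counts without a shared axis between replicates, with changes only in probes well above the filter. That test says nothing about low probes or about shifts shared by the probes of a library. Replicates differed beyond counting noise (chi-square over its degrees of freedom between 10.7 and 276). Whether replicates were grown on separate days was not given, so p-values measure the spread between these libraries. Values in every library were printed for ASAP1, BRCA1, BRCA2, members called after siASAP1 or over 18 libraries, and up to 4 called members in each direction between lines. Values of TOP3A, RAD51B, ATM, RAD50, CHEK1, FANCD2, RMI1, FANCA_21007, RAD54B_27752, RBBP8, FANCC_26408, CDK1, CCNB1 and the markers VIM, CDH2, FN1, KRT17, KRT18 and TYMS were printed after they had been seen. A single gene of the list of other homologous recombination genes is not reported here, and the counts of that list are given without it. Figures were drawn with matplotlib 3.10.9 in Python 3.11.15.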

Additional observations from a re-analysis of the deposited data

How the results depend on the processing

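The counts of called members were small and moved with the processing, and the share of all probes called in the same fit is given in parentheses. After siASAP1 in BT549, where 1 was called (6.97%), there were 3 without a filter on low values (5.87%), 0 with a minimum of 50 (7.16%), 0 with voom weights (6.45%), 0 in a single fit of 18 libraries (6.39%) and 0 by adjusted p (0%). In Hs578T, where 3 were called (2.78%), there was 1 with scaling by library totals (2.97%), 1 with a minimum of 50 (2.2%), 1 with voom weights (2.16%), 1 in the single fit (2.78%) and 0 by adjusted p (0%). In SUM149PT, where 3 were called (9.56%), there were 5 without a filter (7.53%), 7 in the single fit (14.8%) and 0 by adjusted p (0%). Over 18 libraries, where 1 was called (1.74%), there were 0 with scaling by library totals (1.93%), 0 without a filter (0.621%) and 0 with the probes of a symbol summed (2.04%). Between SUM149PT and Hs578T, where 5 were called (20.2%), there were 11 in the siASAP1 libraries (27.9%) and 9 in all 18 (36.6%). Between BT549 and Hs578T, where 1 was called (13.8%), there were 2 with library totals (14.2%), 3 with voom weights (14.7%), 4 in the siASAP1 libraries (19.5%) and 9 in all 18 (28.9%). BLM and FANCI between SUM149PT and BT549 turned to Log2 FC of -0.35 and -0.047 in the siASAP1 libraries, which are other samples.

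With 1 library left out at a time, the share of all probes moved as well. The count ran from 0 to 12 in BT549 (all probes from 3.44% to 22.5%), 0 to 3 in Hs578T (1.66% to 6.67%), 2 to 10 in SUM149PT (4.95% to 23.4%), 0 to 1 over 18 libraries (0.942% to 1.97%), 3 to 14 between SUM149PT and BT549 (12.8% to 33.2%), 3 to 10 between SUM149PT and Hs578T (13.3% to 30.7%) and 0 to 5 between BT549 and Hs578T (8.81% to 21.3%). No member passed the interaction test in any of these fits. Chosen after seeing the data, the axis between replicates as a covariate gave 4 called members in BT549 (10.4% of all probes), 11 in SUM149PT (20.4%), 4 over 18 libraries (8.3%), 12 between SUM149PT and BT549 (30.7%), 11 between SUM149PT and Hs578T (33.4%) and 8 between BT549 and Hs578T (24.7%). Leaving out BT549 siASAP1 1 together with the library labelled SUM149PT siCtrl 2 gave 0 over 18 libraries (1.37%). The cause of these shifts was not tested.

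Deviations of same-numbered libraries from their group means had a mean correlation of -0.44 in SUM149PT, -0.15 in BT549 and 0.31 in Hs578T (from 0.10 to 0.42 in that line). Of 9 siASAP1 libraries, 4 were closest to the siCtrl library of their number. With so few replicates per group, these values cannot decide whether the replicate numbers pair the libraries. With the replicate number as a block, 1 member was called in SUM149PT (3.48% of all probes), 0 over 18 libraries (0.325%) and 4 between BT549 and Hs578T (15.4%). Low counts limit BRCA1, ATRIP, RBBP8 and the 9 genes under the filter.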

Other observations

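The probes of a gene did not always move together. Within groups over the 18 libraries, the 2 probes of H2AFX had r = 0.72, those of BARD1 0.69, FANCA 0.47, RAD54B 0.32, FANCC -0.09 and MRE11A -0.44. MRE11A_4256, whose gene encodes the nuclease of the MRN complex, averaged 3514 and MRE11A_25911 averaged 772. The first had r = -0.57 with the axis of variation between replicates and the second 0.92. These are descriptions over libraries that share a table and differ in depth, and the part played by the transcripts that each probe reads was not tested.

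The members that followed the axis had lower GC content in their longest coding transcript than those that ran against it, with medians of 40.7% over 14 probes and 48.0% over 8. Over all probes with a transcript the same medians were 41.4% and 53.1%. Across the 41 member probes the correlation of GC content with r was -0.409, and across the 10381 matched probes of the table it was -0.44, where probes are not independent replicates.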
